A study of Mus musculus with 2 samples.

Results

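Club cells were examined in 2 single-cell RNA sequencing libraries of mouse lung, 1 from Pclaf WT and 1 from Pclaf KO mice, and came to 630 of the 45824 barcodes kept in both libraries (86 of 30187 in the WT library and 544 of 15637 in the KO library). A barcode, the sequence tag that marks the transcripts of 1 droplet, was kept when its mitochondrial UMIs stayed below 20% and its number of detected genes lay above 200 and below 5000, where a UMI is 1 counted transcript molecule. It was taken as a club cell when Scgb1a1 made up 10% or more of its UMIs, Scgb3a2 had at least 1 UMI, Sftpc was under 5%, and Bpifb1, Muc5b, Foxj1, Ptprc and Pecam1 had 0 UMIs. The members were thus chosen by the measured levels of these 8 genes, whose values below are descriptions.

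The mice of both groups were 8 to 10 weeks old and had received bleomycin, an agent that injures the alveoli, 1 week earlier, at 1.35 U/kg in the design text of the series, while the study's methods give another dose. Pclaf encodes a PCNA-binding protein of proliferating cells, and the KO group lacks it by label. Epithelial cells were sorted as EpCAM-positive, CD31-negative and CD45-negative, and 16000 cells per group were loaded on a 10x Genomics 3' kit. Each genotype has a single library, so no test between the groups was possible, and the intervals below (95%, exact) cover counting error only. Neither the labels nor the methods used here say how many animals went into a library.

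Club cells are dome-shaped secretory cells of the conducting airways, most frequent in the bronchioles of mice. They secrete secretoglobins, metabolise inhaled xenobiotics with cytochrome P450, flavin monooxygenase and glutathione transferase enzymes, and act as progenitors of airway epithelium. After injury of the distal lung they and related airway cells are known to take part in repair.

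Several properties of the libraries bear on all values. The matrices hold 30669 barcodes in WT and 17172 in KO, more than the 16000 cells loaded per group, with a lowest total of 500 UMIs per barcode in both. Pclaf, the deleted gene, was at 39.3 UMIs per 1000000 UMIs (CPM) over all kept barcodes of the WT library and 5.19 CPM over those of the library labelled Pclaf KO. These sums hold different mixtures of cells. Within AT2 barcodes Pclaf was at 9.74 and 5.11 CPM, and within ciliated ones at 4.64 and 2.10 CPM. In club barcodes alone it had 3 UMIs in WT (5.21 CPM) and 28 UMIs in KO (6.10 CPM), a log2 ratio of 0.23 (-1.47 to 2.59), so club cells did not separate the libraries by this gene, and whether the 3' tags of Pclaf lie outside the deleted part was not tested. The methods name male mice. Among WT club barcodes, 13 had UMIs of Xist and of no Y-linked gene, 19 the reverse, 3 both and 51 neither, and among KO club barcodes the counts were 144, 42, 11 and 347. Both libraries thus held club barcodes with Xist, the RNA that silences an X chromosome in female cells. Of the barcode sequences, 163 occur in both matrices, of which 1 is a club barcode in WT and 4 are club barcodes in KO, and no barcode is a club cell in both.

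The make-up of the sorted cells differed between the libraries. A list of 12 immune genes, Ptprc included, marks cells that the sort should remove. Without Ptprc, which the rule used, they summed to 5405 CPM over all kept WT barcodes and 265 CPM over all kept KO barcodes. An endothelial list without Pecam1 summed to 3482 and 239 CPM. The share of club cells among kept barcodes was 0.285% (0.228 to 0.352, Clopper-Pearson) in WT and 3.48% (3.20 to 3.78) in KO, but its denominator holds these other cells. Beside 86 WT club barcodes stood 114 ciliated and 581 AT2 (alveolar type 2) barcodes, and beside 544 KO club barcodes stood 973 and 6666.

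The steps of the rule removed different cells in each library. Of 183 WT barcodes with Scgb1a1 at 10% or more, 174 had Scgb3a2 and 172 were also under the limit on Sftpc, and 124 remained after Bpifb1, Muc5b and Foxj1. Requiring 0 UMIs of Ptprc, the leukocyte antigen CD45, then left 99, and 0 UMIs of Pecam1, the endothelial antigen CD31, left 86. In KO the same steps left 940, 858, 802, 559, 553 and 544 barcodes. Ptprc thus took 25 barcodes from WT and 6 from KO, and Pecam1 13 and 9. A limit of 0 UMIs is met more easily by a shallow barcode. From the step on Sftpc to the last step, the median UMIs per barcode went from 7929 to 4729 in WT and from 8947.5 to 5408.5 in KO. With the rule applied after thinning to 1000 UMIs, 121 of 22746 WT (0.532%) and 591 of 14503 KO barcodes (4.08%) met it. The number, share and depth of club barcodes thus depend in part on the rule. Just outside the limit on Scgb1a1, at 8 to 10% of UMIs, lay 7 WT and 9 KO barcodes that met the other conditions, and just inside, at 10 to 12%, lay 5 and 8.

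Depth was sufficient for summed profiles and low for single genes in WT. The 86 WT club barcodes held 576318 UMIs with a median of 4729 per barcode, and the 544 KO club barcodes held 4593055 UMIs with a median of 5408.5. The median number of detected genes was 1124.5 in WT and 903.5 in KO. Of a gene with 0 UMIs, the sums allow a level of up to 5.21 CPM in WT and 0.653 in KO (3 UMIs).

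Markers that the rule did not use set club apart from AT2 barcodes, and not from goblet-like ones, described below. The 16 club identity genes outside the rule summed to 17343 CPM in WT and 16764 in KO club barcodes, 15438 and 15657 CPM in goblet-like, 9702 and 9990 CPM in ciliated and 3286 and 3223 CPM in AT2 barcodes. Cldn10, a tight junction claudin, was at 252 CPM in WT and 328 in KO club barcodes, beside 3.096 and 6.16 CPM in ciliated and 0 and 0.81 CPM in AT2 barcodes. Gsta3, a glutathione transferase, was at 314 and 290 CPM, against 23.2 and 22.2 CPM in ciliated barcodes. Cyp2f2, the P450 enzyme that activates naphthalene, was at 3647 and 3038.5 CPM against 16.6 and 30.3 CPM in AT2 barcodes. Cbr2, a carbonyl reductase, was at 4583 and 4761 CPM in club, 4212 and 4299 CPM in ciliated and 1850 and 1705 CPM in AT2 barcodes. It thus did not part club from ciliated barcodes here. Of 8 basal cell genes, 7 had 0 UMIs in WT and 5 in KO club barcodes, Krt5 and Trp63 among them.

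The share of barcodes with a UMI separated club from ciliated cells for some of these markers and not for others. After thinning to 1000 UMIs (75 WT and 502 KO club barcodes), Cldn10 was seen in 29.3% of WT and 25.7% of KO club barcodes, against 0.926% and 0.414% of ciliated ones. Gsta3 was seen in 28.0% and 25.5%, against 0.926% and 1.76% of ciliated barcodes. Cyp2f2 was seen in 80.0% of WT club barcodes (69.2 to 88.4) and 63.5% of KO ones (59.2 to 67.8), but also in 59.3% and 68.7% of ciliated barcodes, and in 1.84% and 2.56% of AT2 barcodes. Cyp2f2 by share of barcodes thus set club and ciliated cells together apart from AT2 cells.

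**Figure D1:**
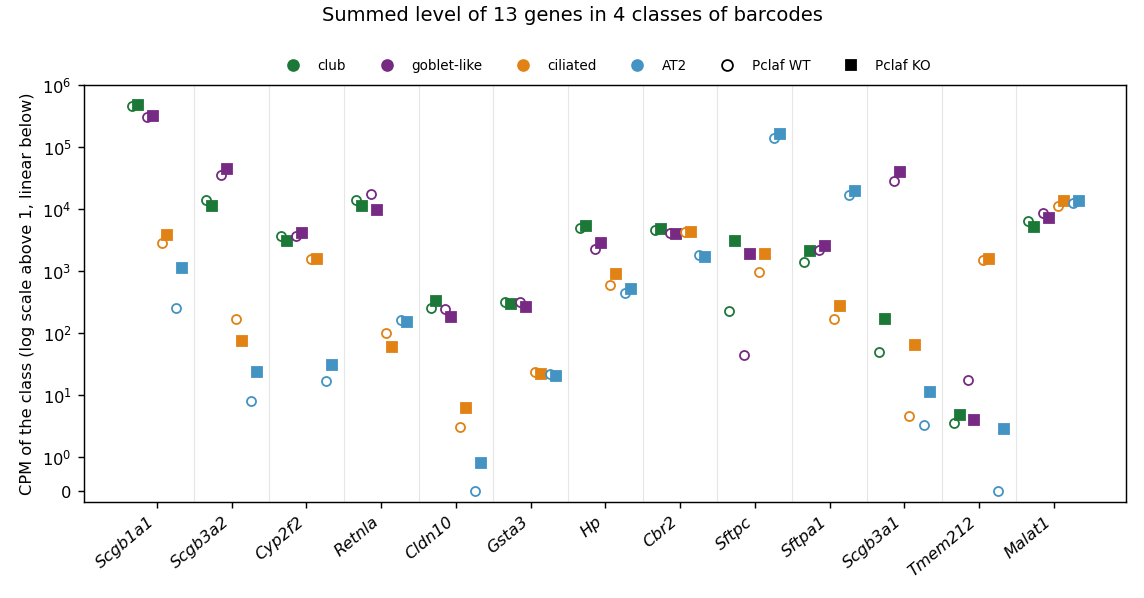
Level of 13 genes, in CPM on an axis that is logarithmic above 1, in club, goblet-like, ciliated and AT2 barcodes of the WT library (open circles) and the KO library (filled squares), each point being 1 summed class. Scgb3a2, Cyp2f2, Retnla, Cldn10 and Gsta3 lay higher in club than in AT2 barcodes of both libraries, and Sftpc was the gene whose club points lay farthest apart between the libraries.

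Nuclear RNA was scarce in many of these barcodes. Malat1, a long noncoding RNA that stays in the nucleus and is abundant in nearly all intact cells, was at 6505 CPM in WT and 5133 in KO club barcodes. It was at 8628 and 7138 CPM in goblet-like, 11289 and 13726 CPM in ciliated and 12771 and 13463 CPM in AT2 barcodes. Scgb1a1, at 455209 and 488066 CPM in club against 2838 and 3870 CPM in ciliated barcodes, lowers the CPM of Malat1 in club barcodes. Its part in these gaps was not tested, so the summed CPM alone does not show that nuclear RNA was scarce. Single club barcodes spread widely, with a median of 1951 CPM in WT and 537 in KO. No Malat1 UMI was found in 33 of 86 WT barcodes (38.4%) and 191 of 544 KO barcodes (35.1%). At 500 CPM or more stood 51 WT (59.3%) and 277 KO club barcodes (50.9%), against 89.5% and 96.8% of ciliated and 85.9% and 92.3% of AT2 barcodes. Of goblet-like barcodes, 69.2% of 13 in WT and 89.3% of 84 in KO stood there, and 30.8% and 5.95% held no Malat1 UMI. For description, club barcodes were parted at 500 CPM into Malat1-richer (500 CPM or more) and Malat1-poorer ones, and values for the richer ones are given beside the main counts and many of the KO over WT ratios below. The parting is a chosen point on a spread and depends on depth, since in a shallow barcode 1 Malat1 UMI passes it. Between 500 and 1000 CPM lay 4 WT and 37 KO barcodes, and above 0 but under 500 CPM lay 2 and 76.

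**Figure D2:**
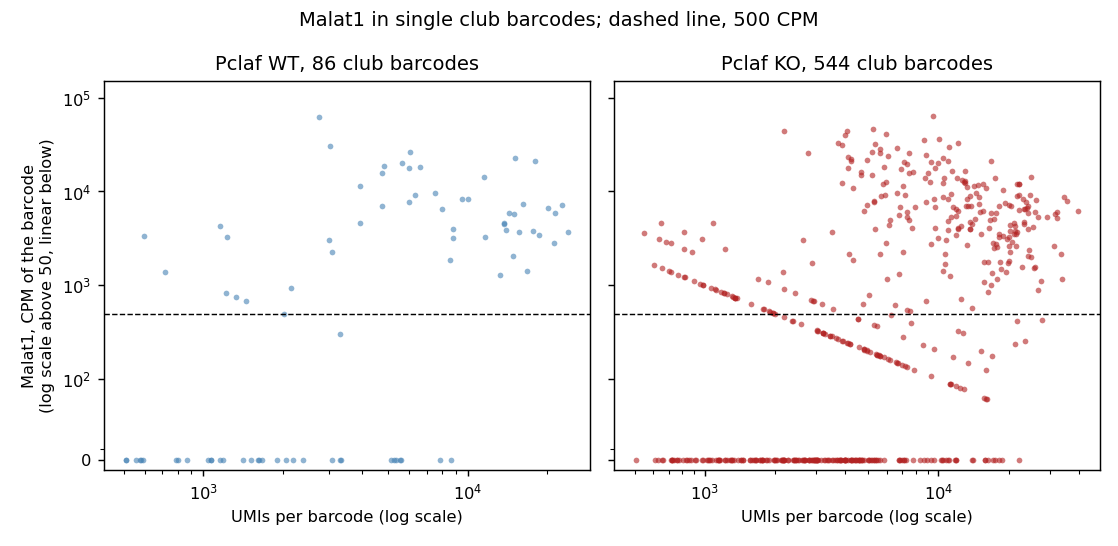
Malat1 of each club barcode, as CPM of that barcode (logarithmic above 50), against its number of UMIs (logarithmic), in the WT library (left) and the KO library (right). Points at 0 hold no Malat1 UMI, barcodes with 1 Malat1 UMI fall on a diagonal, and the dashed line at 500 CPM parts 51 from 35 WT and 277 from 267 KO barcodes.

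The Malat1-poorer barcodes were shallow and simple. Their median was 1622 UMIs and 394 genes in WT and 3678 UMIs and 562 genes in KO, against 8548 UMIs and 2082 genes, and 10436 UMIs and 2166 genes, in the Malat1-richer ones. When every barcode was thinned to 1000 UMIs, the poorer barcodes still had fewer genes, with medians of 262 in WT (26 barcodes, 9 too shallow left out) and 236 in KO (245 barcodes, 22 left out), against 390 in WT (49 barcodes, 2 left out) and 337 in KO (257 barcodes, 20 left out). Mitochondrial transcripts took a median of 3.27% and 0.909% of UMIs in the poorer and 3.92% and 4.13% in the richer barcodes. In KO, the poorer barcodes were thus low in mitochondrial as well as nuclear RNA.

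Between richer and poorer barcodes, many transcripts differed in the same direction in both libraries. Of 798 genes with at least 50 UMIs in WT club barcodes, 323 (40.5%) were at least 2-fold higher and 59 (7.39%) at least 2-fold lower in the richer barcodes, and in KO 3273 of 5314 (61.6%) were higher and 145 (2.73%) lower. Of 796 genes compared in both libraries, 290 were 2-fold higher in both, 34 lower in both and 3 opposite. The 10 highest genes included Malat1, which made the split. Mecom, a zinc finger transcription factor, came next (1316 against 23.2 CPM in WT and 1008 against 17.5 CPM in KO). Xist was also among them (184 against 0 CPM in WT and 330 against 2.91 CPM in KO). Etl4, Grip1, Exoc4, Svil, Kcnip4, Tanc2 and Col23a1 completed the 10, with log2 ratios from 5.06 to 6.29 in KO. In WT all of them except Col23a1 had 0 UMIs in the poorer barcodes. Xist, like Malat1, is an RNA that stays in the nucleus.

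Ferritin genes were among those lower in the richer barcodes. Fth1 and Ftl1, the chains of ferritin, were at 6985 and 3243 CPM in the poorer against 2305 and 1354 CPM in the richer WT barcodes, and at 7320 and 4339 against 2595 and 1885 CPM in KO. Eef1b2, a translation elongation factor, and the respiratory chain subunits Atp5k and Uqcr10 were lower in the richer barcodes by log2 ratios between -1.19 and -1.01 over both libraries. Timm10b, Hsbp1, Ost4, Snrpg and Anapc13 completed the 10.

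Gene groups differed in their ratio, which is to be read against the median of all genes. The secretoglobins had a median log2 ratio, richer over poorer, of -0.25 in WT (3 genes compared) and -0.79 in KO (4 genes), beside 0.40 and 1.58 for all genes, and 2 of these genes, Scgb1a1 and Scgb3a2, were used by the rule. Scgb3a2 was at -0.22 in WT and -0.68 in KO, and Scgb1a1 at -0.25 and -0.19. Above 0 in both libraries were Cyp2f2 (1.51 and 1.90), Hp, the hemoglobin scavenger haptoglobin (1.89 and 1.18), and Aox3, an aldehyde oxidase (2.71 and 3.36), but in KO Hp lay below the median of all genes. Epithelial transcription factors had medians of 2.61 (5 genes) and 1.75 (15 genes), and mitochondrially encoded genes 0.90 (12 genes) and 1.48 (13 genes), the latter below the median of all KO genes. A club marker therefore had a different level according to how many richer and poorer barcodes were counted.

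**Figure D3:**
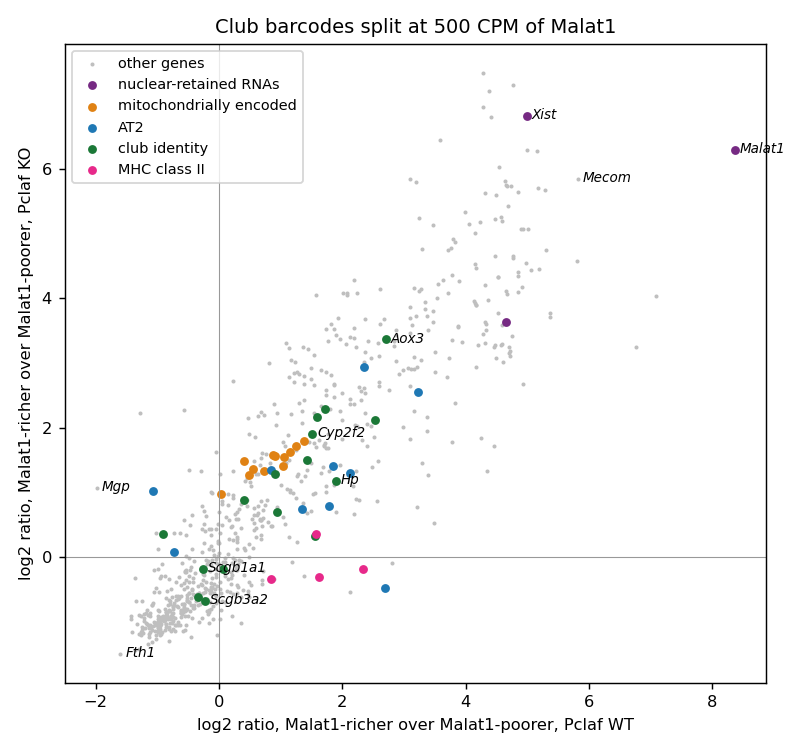
Log2 ratio of each gene, Malat1-richer over Malat1-poorer club barcodes, in the WT library (horizontal) and the KO library (vertical), with gene lists in colour. Scgb1a1, Scgb3a2 and Fth1 lay below 0 on both axes and Malat1, Xist, Mecom and Aox3 above 2 on both.

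Within the class, the secretoglobin content varied over a wide range. Scgb1a1 took 10.0% to 75.7% of UMIs in WT club barcodes, with a median of 42.0%, and 10.1% to 84.6% in KO, with a median of 45.7%. Scgb3a2 had a median of 10319 CPM per WT barcode, with 199 CPM as the lowest and 52963 CPM as the highest value, and a median of 8631 CPM per KO barcode, with 63.7 and 121354 CPM as the extremes. The ranges of both genes overlapped between the libraries.

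Along the share of Scgb1a1, other genes had their own order. In WT, 13 barcodes had Scgb1a1 at 10 to 20% of UMIs, 26 at 20 to 40% and 47 at 40% or more, and in KO 46, 158 and 340. Scgb3a2 went from 8503 over 10074 to 15771 CPM in WT and from 7212 over 8010 to 12274 CPM in KO. Hp, Wfdc2, a secreted protease inhibitor family member, and Cldn10 also had their highest levels in the last bin of both libraries. Malat1 went the other way, from 14905 over 12406 to 3878 CPM in WT and from 12923 over 8436 to 3866 CPM in KO, and mt-Co1 from 10396 over 9689 to 5312 CPM and from 9949 over 8532 to 4921 CPM. Scgb1a1 is a large part of each total and so sets the CPM of all other genes, and the share of barcodes with Malat1 at 500 CPM or more also differed, from 69.2% to 51.1% in WT and from 65.2% to 48.2% in KO.

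Club cells were next compared with 3 other kinds of epithelial barcode, each taken by its own gate. Goblet-like barcodes (13 in WT and 84 in KO) had Bpifb1 plus Muc5b at 2 or more UMIs and 0.1% or more of UMIs, ciliated barcodes had UMIs of Foxj1 and Tppp3, and AT2 barcodes had Sftpc at 5% or more. All 3 gates also required 0 UMIs of Ptprc and of Pecam1. The genes that the gates used differ by construction. Scgb1a1 alone was at 455209 CPM in WT and 488066 in KO club barcodes, which lowers the CPM of every other gene there. Its own part in the counts in the lower direction was not tested. With Scgb1a1, Scgb3a2, Sftpc, mitochondrial and ribosomal genes taken from the denominator, 334 genes were higher and 929 lower than in ciliated barcodes of both libraries, in place of 84 and 2391. With Malat1-richer club barcodes alone, 86 genes were higher and 2124 lower than in ciliated barcodes of both libraries, 115 and 1719 in place of 110 and 2379 against AT2 barcodes, and 36 and 56 in place of 28 and 77 against goblet-like ones.

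Against ciliated barcodes, 110 of 3878 genes (2.84%) were 2-fold higher in WT and 327 of 11049 (2.96%) in KO, and 84 were higher in both. Lower in club barcodes were 2493 genes (64.3%) in WT and 7921 (71.7%) in KO. Retnla, the secreted resistin-like molecule alpha, was at 13952 CPM in WT and 11126 in KO club barcodes against 99.1 and 59.0 CPM in ciliated ones. Pon1, a paraoxonase, was at 186 and 123 CPM against 0 and 1.05 CPM. Gabrp, a subunit of the GABA-A receptor, Ccdc129, Trf, the iron carrier transferrin, Cldn10 and Scnn1b were also among the leading genes outside the rule, with log2 ratios between 4.44 and 7.06 over both libraries. Lower in club barcodes were axonemal and ciliary genes such as Spag17, Wdr63, Ccdc170 and Tmem212, and Tmem212 stood at 3.47 and 4.79 CPM against 1500 and 1553 CPM.

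Against AT2 barcodes, 145 of 6734 genes (2.15%) were higher in WT and 493 of 12837 (3.84%) in KO, and 110 in both, while 2872 (42.6%) and 6513 (50.7%) were lower. Outside the rule the leading genes included Cldn10, Gabrp, Ccdc129, Cyp2f2, Retnla, Bmpr1b, a BMP receptor, and Lypd2, with log2 ratios from 5.73 to 8.65 in KO. In WT the first 3 of these had 0 UMIs in AT2 barcodes. Bmpr1b was at 222 CPM in WT and 116 in KO club barcodes against 1.80 and 1.95 CPM in AT2 ones. Lower in club barcodes were Lyz1 (1.74 and 14.8 against 1170 and 1276 CPM), Cox6a2, Itih4, Adam19, Nrn1, Slc26a4, Tinag, Pik3c2g and Acoxl.

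Of the 3 comparisons, each over its own set of genes, that with goblet-like barcodes had the smallest share of genes lower in club barcodes. With Scgb1a1, Scgb3a2, Sftpc, mitochondrial and ribosomal genes out of the denominator, its medians were 0.29 in WT and 0.33 in KO. Those against AT2 barcodes were -0.06 and -0.18, nearer to no difference. Of 1048 genes compared in WT, 68 (6.49%) were higher and 119 (11.4%) lower in club barcodes, and in KO 203 of 6621 (3.07%) were higher and 1163 (17.6%) lower, with 28 higher and 77 lower in both. Lower in club barcodes were the airway host defence genes Bpifa1 (5.21 and 13.7 CPM against 19143 and 11406 CPM), Reg3g (0 and 11.97 against 2805 and 10046 CPM), Tff2, Ltf and the secretoglobin Scgb3a1 (50.3 and 166 against 28335 and 39505 CPM). Higher in club barcodes were Chia1, an acidic chitinase (93.7 and 131 CPM against 0 and 4.71 CPM), the alpha-2-macroglobulin-like inhibitor A2ml1 (200 and 259 CPM against 0 and 23.5 CPM), and the surfactant gene Sftpb (1787 and 1563 CPM against 432 and 355 CPM). Ager, Cacna1c, Kctd8, Soat1, S100g, Clic3 and Slc34a2 completed the 10 higher genes. Cyp2f2 (3647 and 3038.5 against 3714 and 4050 CPM) and Gsta3 (314 and 290 against 318 and 265 CPM) were within 2-fold in both libraries. The goblet-like class of WT rests on 13 barcodes with 113357 UMIs.

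Chains of the epithelial sodium channel differed between the classes. Scnn1b, the beta chain of the epithelial sodium channel, was at 158 CPM in WT and 96.7 in KO club barcodes, against 3.096 and 4.46 CPM in ciliated and 18.8 and 15.5 CPM in AT2 barcodes, but goblet-like barcodes had 79.4 and 91.1 CPM. Scnn1g, the gamma chain, was at 52.1 and 33.3 CPM, against 1.55 and 2.88 CPM in ciliated and 7.94 and 5.64 CPM in AT2 barcodes. Scnn1a, the alpha chain, did not follow, at 93.7 and 65.8 CPM against 344 and 284 CPM in ciliated barcodes. Of the ion and water transport list, 2 of 7 genes compared were 2-fold higher than in ciliated barcodes and 2 lower in WT, and 4 and 3 of 12 in KO, beside 2.84% of all genes higher and 64.3% lower in WT and 2.96% and 71.7% in KO. Against AT2 barcodes the counts were 2 higher and 6 lower of 12 in WT and 3 and 7 of 13 in KO, beside 2.15% and 42.6% in WT and 3.84% and 50.7% in KO. Kdr, the VEGF receptor otherwise used as an endothelial marker, was at 72.9 and 46.8 CPM in club barcodes, in 26 of 86 and 107 of 544 of them, against 10.8 and 1.57 CPM in ciliated and 7.94 and 1.02 CPM in AT2 barcodes. Other endothelial markers such as Cldn5 and Cdh5 were not higher in club than in ciliated barcodes of either library by 2-fold, at 20.8 and 1.74 CPM, and 15.6 and 1.31 CPM.

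Scgb1a1, Scgb3a2, Retnla and Cyp2f2 were the 4 genes both among the 10 highest over AT2 barcodes and at 1000 CPM or more in club barcodes of both libraries. The promoters of Cyp2f2 (gene at chr7:27119955-27133660) and Retnla (gene at chr16:48842609-48844461) are shown because they are the 2 of these 4 genes that the promoter table held, and neither was used by the rule, though goblet-like barcodes had both within 2-fold and ciliated barcodes also had Cyp2f2. Each line gives the 250 bases before the RefSeq start on the plus strand of GRCm38.p6, chr7:27119705-27119954 for Cyp2f2 and chr16:48842359-48842608 for Retnla. Capitals mark matches to CAAGTG (the core of NKX2 sites) in Cyp2f2 and to TTNCNNAA (a relaxed C/EBP half-site pair) in Retnla, searched on both strands together with TGTTTNC (FOX).
Cyp2f2: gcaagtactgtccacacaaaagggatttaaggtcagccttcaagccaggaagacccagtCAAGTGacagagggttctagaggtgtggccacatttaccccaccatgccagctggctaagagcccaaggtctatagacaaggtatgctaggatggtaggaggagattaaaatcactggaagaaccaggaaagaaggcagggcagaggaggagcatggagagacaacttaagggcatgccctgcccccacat
Retnla: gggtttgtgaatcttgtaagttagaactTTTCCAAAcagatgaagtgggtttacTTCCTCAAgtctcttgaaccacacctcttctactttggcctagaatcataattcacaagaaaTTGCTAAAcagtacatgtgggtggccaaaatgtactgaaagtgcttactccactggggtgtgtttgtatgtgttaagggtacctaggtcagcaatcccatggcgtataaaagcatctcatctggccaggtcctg
The Cyp2f2 window holds 1 match to CAAGTG, 185 bases before the start, and none to the other motifs, and the Retnla window holds 3 matches to TTNCNNAA, the nearest 126 bases before the start, and none to the others. Among 32851 promoters of 250 bases, 11.6% hold CAAGTG, 36.8% TTNCNNAA and 17.8% TGTTTNC, so such matches are common. Of the factors that bind these motifs in airway cells, Nkx2-1 was at 137 CPM in WT and 96.7 in KO club barcodes, Cebpa at 31.2 and 37.4 CPM, and Foxa1 at 31.2 and 21.3 CPM.

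The study asked what loss of Pclaf does to the epithelium after injury, and in club cells the summed profile of the KO-labelled library was set against that of WT. The summed levels of the leading club genes were close. Cldn10 was at a log2 ratio, KO over WT, of 0.38 (0.13 to 0.64), Gsta3 at -0.12 (-0.34 to 0.11), Cyp2f2 at -0.26 (-0.33 to -0.20), Hp at 0.10 (0.04 to 0.16) and Retnla at -0.33 (-0.36 to -0.29). The median per barcode of Cyp2f2 was 2391 CPM in WT and 1207 in KO, and of Cldn10 99.6 and 234 CPM. For Gsta3 it was 227 and 191 CPM, and for Hp 2511 and 2849 CPM. In Malat1-richer barcodes the ratio of Cyp2f2 was -0.05 (-0.12 to 0.02), of Cldn10 0.66 (0.37 to 0.95), of Gsta3 -0.28 (-0.53 to -0.01), of Hp 0.20 (0.14 to 0.25) and of Retnla -0.51 (-0.54 to -0.47). Of 18 club identity genes compared, which include Scgb1a1 and Scgb3a2 of the rule, none was 2-fold higher or lower, and their median was -0.25 beside -0.28 for all genes.

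Over all 5864 genes with at least 50 UMIs in club barcodes, 171 (2.92%) were at least 2-fold higher and 445 (7.59%) at least 2-fold lower in KO. This split depends on the scaling. With TMM factors, which add 0.43 to every log2 ratio, it was 460 higher and 103 lower with a median of 0.15, with DESeq2 size factors 425 and 111, and with Scgb1a1, Scgb3a2, Sftpc, mitochondrial and ribosomal genes taken from the denominator 238 and 232. Ratios are therefore to be read against the median of -0.28, and a negative ratio weaker than -0.43 changes sign with TMM. In Malat1-richer barcodes alone, 149 of 5299 genes (2.81%) were higher and 174 (3.28%) lower, with a median of -0.13, and in Malat1-poorer ones 155 of 1119 (13.9%) were higher and 58 (5.18%) lower.

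**Figure D4:**
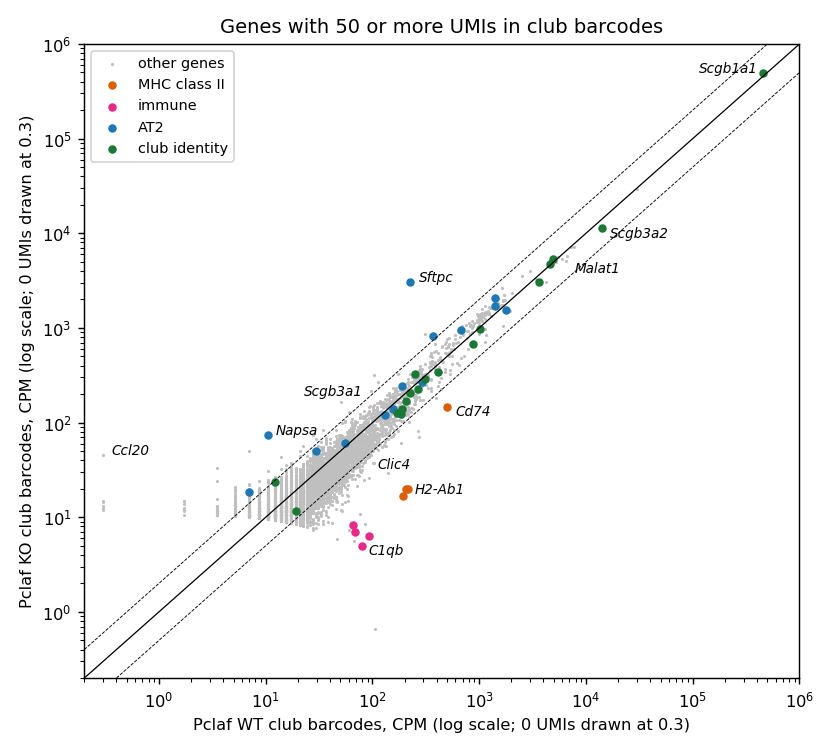
CPM of each gene in KO club barcodes against its CPM in WT club barcodes, both axes logarithmic with genes at 0 UMIs drawn at 0.3, for genes with 50 or more UMIs. The solid line marks equal levels and the dashed lines 2-fold differences: the 4 MHC class II genes and 4 immune genes lay below the lower line, and Sftpc and Napsa above the upper line.

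Genes of immune cells led the lower side (7.59% of all genes). The 15 lowest by the naming rule were C1qb, Cd52, C1qa, H2-Eb1, H2-Ab1, H2-Aa, S100a4, Tyrobp, Ctss, Fcer1g, Wfdc17, Ccl6, Psap, Zeb2 and Ckb, with log2 ratios from -3.99 to -2.10. C1qb, a complement chain made by macrophages, was at 79.8 CPM in WT and 5.01 in KO club barcodes, and 63.0% of its WT UMIs came from 1 barcode. Cd52, a surface antigen of leukocytes, was at 92.0 and 6.31 CPM. All 4 immune genes compared were 2-fold lower in KO, as were both compared in Malat1-richer barcodes, where C1qb was at -5.19 (-6.60 to -4.02).

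The immune list was also lower in KO in ciliated and AT2 barcodes. The immune list summed to 408 CPM in WT and 36.1 in KO club barcodes, to 211 and 32.3 CPM in ciliated and to 265 and 27.4 CPM in AT2 barcodes, which should lack them. Its most abundant gene was Cd52 in WT and Fcer1g in KO club barcodes, and the B cell gene Cd79a had 0 UMIs in both, the T cell gene Cd3e 0 in WT and 1 in KO, and Ptprc 0 by the rule. The C1qb ratio was -3.27 (-4.24 to -2.29) in ciliated and -3.12 (-3.50 to -2.73) in AT2 barcodes. The immune list was thus lower in KO in all 3 kinds of barcode, and its part in the genes below was not tested.

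MHC class II, the molecules that present antigen to CD4 T cells, differed beside it. H2-Ab1 was at 215 CPM in WT, in 32 of 86 barcodes, and at 19.8 CPM in KO, in 53 of 544 barcodes, a log2 ratio of -3.44 (-3.85 to -3.04). H2-Aa was at 206 and 20.03 CPM, with 33.6% of its WT UMIs in 1 barcode, and H2-Eb1 at 193 and 17.0 CPM. Cd74, the invariant chain, was at 500 and 146 CPM (-1.78, -1.98 to -1.57). All 4 genes compared were 2-fold lower in KO (7.59% of all genes), and also in Malat1-richer barcodes (3.28% of all genes), where H2-Ab1 was at -3.65 and Cd74 at -1.83. In Malat1-poorer barcodes 1 gene of the list could be compared, at -0.61.

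MHC class II was also read in club barcodes without immune transcripts. The immune genes themselves differed between the libraries, so this filter in part sets its own outcome, and no conclusion is drawn from it. With 0 UMIs of all 12 immune genes required, a choice made after these values were seen, 34 of 86 WT (39.5%) and 457 of 544 KO club barcodes (84.0%) were left, with medians of 3188 and 5129 UMIs and Malat1 at 500 CPM or more in 41.2% and 48.8%. In them Cd74 was at 95.3 CPM in WT and 111 in KO, a log2 ratio of 0.22 (-0.49 to 1.04), and H2-Ab1 at 29.8 and 14.2 CPM, -1.07 (-2.39 to 0.61). These rest on 16 and 5 WT UMIs. Ctss, a cathepsin of antigen-presenting cells, was still lower in KO at -4.13 (-5.62 to -2.58), on 8 and 10 UMIs. In ciliated barcodes H2-Ab1 was at 209 and 151 CPM and in AT2 barcodes at 587 and 535 CPM, log2 ratios of -0.47 (-0.72 to -0.20) and -0.13 (-0.21 to -0.06).

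Sftpc, the gene of surfactant protein C, which the rule held under 5% of UMIs, was among the 15 genes named as higher in KO. It was at 226 CPM in WT and 3046 in KO club barcodes, with UMIs in 37 of 86 and 541 of 544 barcodes. After thinning to 1000 UMIs, 14.7% of WT and 79.3% of KO club barcodes had an Sftpc UMI, beside 15.7% and 65.3% of ciliated barcodes, which should lack it. In WT the club share was thus no higher than that of ciliated barcodes and is not read as expression. AT2 barcodes themselves had 138840 CPM in WT and 163540 in KO.

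Other AT2 genes differed less. Napsa, the protease that processes surfactant protein B, was at 10.4 CPM in WT and 74.2 in KO (2.83, 1.70 to 4.29), and at 34.1 and 34.9 CPM in ciliated barcodes. Its ratio was 3.48 in Malat1-richer barcodes and 0.59 (-1.34 to 3.67) in Malat1-poorer ones, and 0.83 as a mean over barcodes. Of 14 AT2 genes compared, Sftpc, Napsa, Lyz2 and Etv5 were 2-fold higher and none lower (2.92% and 7.59% of all genes), with a median of 0.44. Sftpc was used by the rule, and the list without Sftpc summed to 6500 CPM in WT and 8097 in KO club barcodes. Lyz2, lysozyme, rested in part on 1 barcode, which held 18.4% of its KO UMIs, and was at 0.26 with Sftpc held under 1%. The part of free RNA from AT2 cells in these values was not tested.

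Several surfactant genes were present in club barcodes of both libraries above the ciliated level, though Sftpa1 was higher still in goblet-like barcodes, and club cells are known to make surfactant proteins A, B and D. Sftpa1 was at 1397 CPM in WT and 2071 in KO club barcodes against 170 and 271 CPM in ciliated and 2214 and 2570 CPM in goblet-like ones, Sftpd at 673 and 959 CPM against 79.0 and 167 CPM, and Sftpb at 1787 and 1563 CPM against 413 and 480 CPM. Cxcl15, a lung chemokine, was at 1400 and 1697 CPM against 79.0 and 111 CPM.

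Most of the other higher genes were rare transcripts in WT. Lyz1, Ttc32, Hc, Snhg12, Yif1b, Enpep, Tspan31, Fbl, Ppp1r14d, Vpreb3, Amn1 and Med9 completed the 15 with Sftpc, Napsa and Scgb3a1, and each of these 12 had 4 WT UMIs or fewer. Hc, complement component C5, was at 6.94 and 49.9 CPM (2.84, 1.47 to 4.73), at 2.95 in Malat1-richer barcodes, and at 1785 and 1714 CPM in AT2 barcodes. Scgb3a1, a secretoglobin of secretory airway cells, was at 50.3 and 166 CPM (1.72, 1.19 to 2.31, and 1.95, 0.87 to 3.28, in Malat1-richer barcodes), but 1 barcode held 62.1% of its WT UMIs. Its ratio turned to -0.84 when 1 UMI of each excluded gene was allowed.

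Detoxification genes differed little as a list. Of 28 xenobiotic metabolism genes compared, 2 were 2-fold higher and 2 lower, beside 2.92% and 7.59% of all genes, with a median of -0.13. Fmo1, a flavin monooxygenase, was among the lower genes at 20.8 CPM in WT and 8.27 in KO club barcodes (-1.33, -2.30 to -0.26), while Fmo2 was at 420 and 271 CPM (-0.63, -0.83 to -0.43). Higher were Gstp1 (17.4 and 37.2 CPM, 1.10, 0.19 to 2.19) and Sult1d1, a sulfotransferase with 0 WT and 69 KO UMIs, at least 2.89-fold higher. In Malat1-richer barcodes Fmo1 was at -0.76 (-1.91 to 0.57), Fmo2 at -0.46 (-0.67 to -0.25) and Gstp1 at 0.96 (-0.08 to 2.21), and 26 genes of the list were compared, of which 1 was 2-fold lower and none higher, beside 3.28% and 2.81% of all genes.

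The median of Notch receptors and targets lay below that of all genes. The Notch pathway keeps airway progenitors secretory. Of 7 genes compared, 2 were 2-fold lower in KO (7.59% of all genes) and none higher, with a median of -0.77. Notch3 was at 38.2 CPM in WT and 12.8 in KO club barcodes (-1.57, -2.30 to -0.79), and at 15.5 and 1.97 CPM in ciliated ones. Rbpj, the DNA-binding partner of Notch, was at 48.6 and 20.2 CPM (-1.26, -1.89 to -0.60), and Hes1, a target, at 250 and 167 CPM (-0.58, -0.84 to -0.31). In Malat1-richer barcodes Notch3 was at -1.23 (-1.99 to -0.41), Rbpj at -1.03 (-1.66 to -0.35) and Hes1 at -0.45 (-0.72 to -0.18). In barcodes without immune transcripts (34 in WT), Notch3 was at -0.39 and Rbpj at 0.85. No conclusion is drawn from these, since the filter uses genes that themselves differed between the libraries. Notch1 was at -0.03 (-0.81 to 0.85).

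Injury and stress genes were mostly within 2-fold, and the counts of their lists are to be read beside 2.92% of all genes higher and 7.59% lower. Krt18, a keratin of simple epithelium, was at 97.2 CPM in WT and 214 in KO (1.14, 0.75 to 1.55), and its partner Krt8 at 109 and 135 CPM (0.31, -0.07 to 0.71). The ratio of Krt18 was above 0 at every setting tried, from 0.72 without immune transcripts to 1.74 as a mean over barcodes. Of 13 p53 target genes compared, 1 was 2-fold higher, Bbc3, with 1 WT and 49 KO UMIs (2.62, 0.07 to 7.95). Cdkn1a, the cell cycle inhibitor p21, was at 62.5 and 100.6 CPM (0.69, 0.20 to 1.22), with 32.0% of its KO UMIs in 1 barcode. In Malat1-richer barcodes Krt18 was at 1.10 (0.69 to 1.55), Krt8 at 0.35 (-0.04 to 0.76) and Cdkn1a at 0.97 (0.45 to 1.55). Of 15 immediate early genes, Dusp1 (-1.27, and -1.03 in Malat1-richer barcodes) and Zfp36 (-1.04 and -0.81) were 2-fold lower, and the list median was -0.29. Of 9 heat shock genes, Hspa1b was 2-fold lower, and of 15 genes of folding in the endoplasmic reticulum 2 were 2-fold higher, with list medians of -0.34 and -0.16.

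Clic4, which the study follows, belongs to the chloride intracellular channel genes, of which 5 were compared and 1 was 2-fold lower (7.59% of all genes), and none in Malat1-richer barcodes. Clic4 was at 93.7 CPM in WT and 42.9 in KO club barcodes (-1.13, -1.57 to -0.67), at -0.74 (-1.21 to -0.24) in Malat1-richer barcodes and at 0.81 (-0.58 to 2.70) without immune transcripts, where it had 4 WT UMIs. In WT it was at 304 CPM in the 13 barcodes with Scgb1a1 at 10 to 20%, 131 CPM at 20 to 40% and 60.8 CPM in the 47 at 40% or more. The same bins of KO had 45.8, 45.2 and 42.2 CPM, so the libraries lay nearest in the last bin. Clic3 was at 156 and 199 CPM (0.35, 0.04 to 0.68) and Clic5 at 116 and 72.5 CPM (-0.68, -1.06 to -0.28), and in Malat1-richer barcodes at 0.14 (-0.22 to 0.51) and -0.48 (-0.88 to -0.05). In ciliated barcodes Clic4 was at 181 and 146 CPM.

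Transport, transcription factor and interferon genes were also mostly within 2-fold, again beside 2.92% of all genes higher and 7.59% lower. Of 12 genes of ion and water transport compared, 1 was 2-fold higher, the chloride channel Cftr, with 3 WT and 50 KO UMIs (1.06, -0.57 to 3.39), and the median was -0.35. None of 15 epithelial transcription factors differed 2-fold (median -0.35), and Sox2, a factor of airway epithelium, was at 31.2 and 32.7 CPM (0.06, -0.65 to 0.86). Of 5 interferon response genes, 1 was 2-fold lower and none higher, and the median was -0.09. Of 10 injury-induced epithelial genes, Krt18 was the 1 that was 2-fold higher, with a median of 0.28. None of 13 mitochondrially encoded genes (median -0.13), 4 nuclear-retained RNAs (median -0.25), 5 AT1 genes (median 0.27) or 8 mesenchymal genes (median 0.05) differed 2-fold. Divided by Malat1, 2 of 8 mesenchymal genes were 2-fold higher in Malat1-richer barcodes (median 0.30, beside 2.81% of all genes higher there) and 2 of 2 lower in Malat1-poorer ones (median -2.28, beside 5.18% of all genes lower and 13.9% higher there), where 2 of 4 AT1 genes were also higher and 1 lower. Of 4 ciliated cell genes, Dynlrb2, a dynein light chain, was 2-fold higher with 3 and 97 UMIs (2.02, 0.43 to 4.32), and 21.6% of its KO UMIs came from 1 barcode.

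Some differences came from very few barcodes. Igfbp5, an insulin-like growth factor binding protein, was at 203 CPM in WT and 16.5 in KO, and 94.9% of its WT UMIs came from 1 barcode. Ccl20, a chemokine, had 0 UMIs in WT and 209 in KO, at least 8.74-fold higher, but in 5 of 544 barcodes, 1 of which held 46.4% of the UMIs, and it was the 1 gene 2-fold higher of 9 acute phase and chemokine genes compared (median 0.07). Reg3g, an antimicrobial lectin, had 0 and 55 UMIs, with 45.5% in 1 barcode. Of 17 cell cycle genes, 6 were compared and 1 was 2-fold higher (2.92% of all genes), Ube2c, with 3 and 90 UMIs (1.91, 0.32 to 4.22). In Malat1-richer barcodes Ube2c was at -0.05 (-1.82 to 2.35), and in Malat1-poorer ones 3 of 3 cell cycle genes compared were 2-fold higher, with a median of 3.16 beside 13.9% of all genes higher. Among 19 mucous and airway defence genes, 11 were compared and 5 were 2-fold higher (2.92% of all genes), with a median of 0.35, Reg3g and Scgb3a1 among them. In Malat1-richer barcodes 2 of 8 were 2-fold higher (2.81% of all genes). The list was also compared in other barcodes, with 7 of 12 higher in ciliated (416 of all 10614 genes), 5 of 14 in AT2 (426 of 12777) and 2 of 15 in goblet-like ones (224 of 2622).

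**Figure D5:**
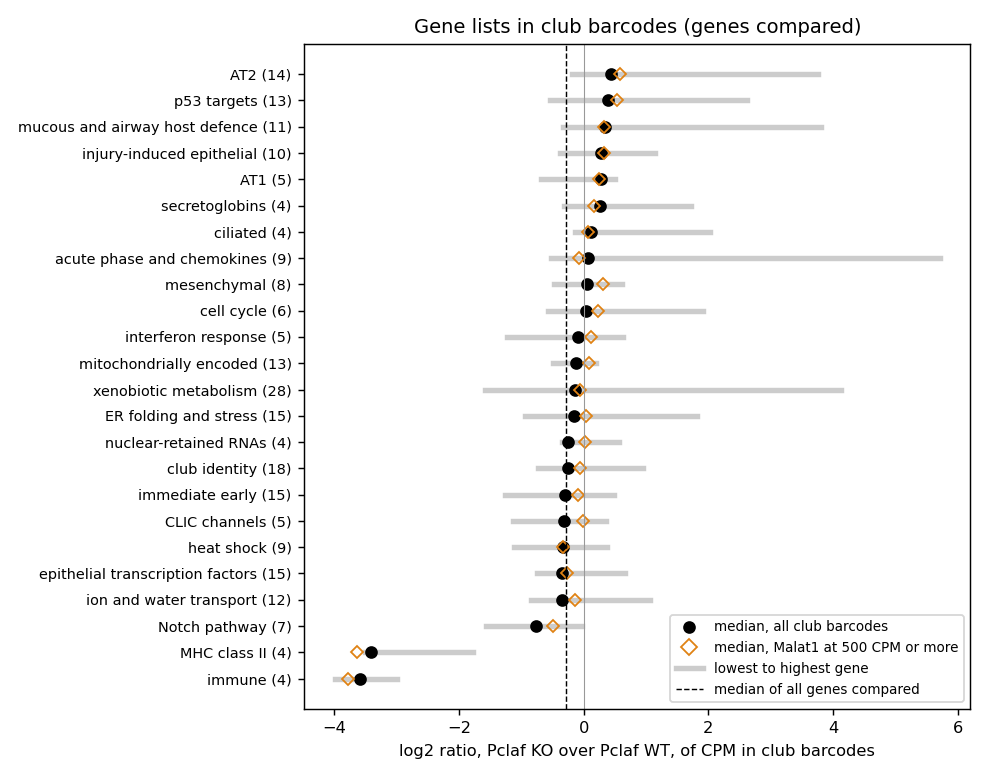
Median log2 ratio, KO over WT, of 24 gene lists in all club barcodes (black circles) and in Malat1-richer ones (orange diamonds), with the lowest to highest gene as a grey bar, the number of genes compared in brackets and the median of all genes as a dashed line. MHC class II at -3.40 and immune genes at -3.59 lay below all other lists, and club identity at -0.25 lay beside the dashed line at -0.28, which TMM scaling moves to 0.15.

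The number of genes per club barcode was also compared at equal depth. Thinned to 1000 UMIs, club barcodes had a median of 349 genes in WT (75 barcodes, 11 too shallow left out) and 287.5 genes in KO (502 barcodes, 42 left out), against 1124.5 and 903.5 without thinning. Goblet-like barcodes had 402 and 395, AT2 barcodes 554 and 514, and ciliated barcodes 745.5 and 728. Club barcodes thus had the fewest genes of the 4 kinds at equal depth in both libraries, where Scgb1a1 alone made up a median of 42.0% and 45.7% of their UMIs. In Malat1-richer barcodes the medians were 390 and 337.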

How the data were processed

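The authors deposited 1 table of raw UMI counts per library, made with Cell Ranger against GRCm38 (5.0.0 per the file headers, 3.1.0 in the submitters' processing notes), with 31053 genes and filtered barcodes. The labels give 1 sample per genotype and no animal numbers. Totals were 98171818 UMIs in WT and 111267567 in KO. From the counts, barcodes were chosen by the rule in the report, summed per class and library and scaled to CPM. A ratio has an exact conditional Poisson interval, with 0.5 added to both counts where 1 is 0. Genes with at least 50 UMIs over both sides were compared, and 2-fold differences counted without a test. Shares have Clopper-Pearson intervals. All intervals and the 3-count floor cover counting error only, and UMIs from 1 cell are not independent animals.

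The other gates also required no Foxj1 and Sftpc under 5% of goblet-like, Scgb1a1 under 10% and Sftpc under 5% of ciliated, and Scgb1a1 under 1% and no Foxj1 of AT2 barcodes. Each of them took only barcodes with no UMI of Ptprc or Pecam1, so their immune and endothelial levels are those left after this filter. Named genes are the 15 highest and 15 lowest KO over WT ratios among genes found in at least 10% of club barcodes of the higher library. In the other comparisons they are the 10 highest and 10 lowest by the weaker of the ratios of both libraries, which had to share their direction. Ribosomal, mitochondrial, Gm and Rik genes were left out of these, and members of 27 gene lists and Pclaf are named beside them. The members, lists and tests were chosen with earlier results of these data known. Doublets were not removed in the main values. Scrublet (scanpy 1.11.5) marked 0 barcodes at an expected rate of 5%, which did not work, and at 0.8% per 1000 barcodes, set afterwards, 2642 WT and 422 KO barcodes, of them 1 and 11 club barcodes, left out as an alternative. TMM factors came from edgeR 4.0.16 and size factors from DESeq2 1.42.0, under R 4.3.3. Python 3.11.15, numpy 2.4.6, scipy 1.17.1 and pandas 2.3.3 were used, and the ratio step was checked on simulated counts. Promoters and positions are from RefSeq GRCm38.p6, whose table held 2 of the 4 promoters sought.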

Additional observations from a re-analysis of the deposited data

How the results depend on the processing

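With 1 library per genotype, no setting gives a replicate check, and the WT class of 86 barcodes limits every ratio to KO. No paired analysis was possible because each genotype has 1 library and no test was made. A value was taken as unmoved when it stayed within the interval of the main value, within 1.5 times for counts, or within a fixed margin for medians of ratios. That margin is no counting interval, and 196 of 395 medians of gene lists stayed within it. Over 1279 values of 92 results, 897 were unmoved, 372 moved further and 10 were ratios of 2-fold or more that turned in sign, and causes were not tested. With smaller values included, 80 turned in sign: 55 medians of gene lists, 22 ratios of single genes and the median of all genes at 3 settings, with TMM and DESeq2 factors and in Malat1-poorer barcodes. With the limits on genes per barcode set on UMIs instead, 47 WT and 296 KO barcodes met the rule. Of genes 2-fold lower in KO over WT there were 670 with 1 UMI of each excluded gene allowed, 174 (median of all genes -0.13) with Malat1 at 500 CPM or more, 58 (median 0.16) with less, and 232 (median -0.1) with the other denominator. The counts higher and lower were 460 and 103 with TMM factors (median 0.15), 425 and 111 with DESeq2 size factors (median 0.13), 387 and 1166 as means over barcodes, 548 and 1018 with 20 UMIs per gene, 42 and 153 with 100 UMIs, and 1115 and 4437 with no minimum (median -0.48). Without immune transcripts, a setting chosen after seeing the data and made from genes that themselves differed, 386 genes were higher. Genes lower in the Malat1-richer barcodes numbered 200 in WT and 534 in KO with the other denominator, and 64 in KO with the split at 1 UMI. Higher and lower in club barcodes of both libraries were 60 and 33 genes against goblet-like, 334 and 929 against ciliated and 257 and 623 against AT2 barcodes with the other denominator. With 100 UMIs per gene they were 11 and 37, 48 and 1132, and 73 higher against AT2. The median number of genes per club barcode was 199.5 in WT and 173 in KO thinned to 500 UMIs, and 1124.5 and 903.5 unthinned. The KO over WT ratio of Igfbp5 turned to 0.83 with Scgb1a1 at 20% or more and to 0.63 without Scrublet doublets, that of Scgb3a1 to -0.84 with 1 UMI of each excluded gene, and those of Enpep and Ccl20 to -1.67 and -1.19 in Malat1-poorer barcodes, where WT had 0 UMIs of both and KO 2 and 3, so that the sign comes from the 0.5 added to each count. Without immune transcripts, Med9 turned to -0.2, Clic4 to 0.81, Cd74 to 0.22, Rbpj to 0.85 and Igfbp5 to 0.66.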
